A study of Hapsidospora chrysogena with 9 samples.

Results

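The time course of the AcmybA knockout was described from its 3 libraries, 1 each at 48, 72 and 96 h of culture, out of 9 libraries in the series. RNA came from mycelium of Hapsidospora chrysogena, the filamentous fungus better known as Acremonium chrysogenum, grown in LPE medium. The genotypes are wild type, a knockout of the Myb transcription factor gene AcmybA, and a strain that overexpresses AcmybA, each sampled at the same 3 ages; the knockout libraries were set beside the other 6 only where a difference was asked for. The labels name the genotype and age of each library, while the making of the strains and the number of clones or cultures behind a library were not given in the sources used here. Identifiers in the files are not paired with gene names, so the level of AcmybA was not analysed here as a check of the labels. Genes were described when they reached 10 FPKM (fragments mapped to a transcript, scaled by its length and by the fragments of the library) in at least 1 knockout library. That gave 7561 of the 8899 genes in the table, of which 6750 were at 10 FPKM or more in all 3 knockout libraries and 1338 genes stayed below the limit. The gene nearest above the limit, KFH47562.1, was at 7.63, 7.77 and 10.01 FPKM at 48, 72 and 96 h. The nearest below it, KFH46191.1, was at 9.98, 4.76 and 5.17 FPKM.

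Myb proteins bind DNA through helix-turn-helix repeats and act as transcriptional activators or repressors. In filamentous fungi such as Aspergillus, a Myb-type regulator takes part in the switch from hyphal growth to conidiation, the formation of asexual spores. Acremonium chrysogenum is the industrial source of cephalosporin C, a beta-lactam antibiotic that is made by secondary metabolism as growth slows. The interval sampled here therefore asks which transcripts change as a mycelium without AcmybA ages. Roles of single genes are not given below, and identifiers are named sparingly.

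With 1 library per time, a difference between times has no replicate check, and changes are given by size, without a p-value. A gene is said to have risen or fallen when log2(FPKM + 1) differed by at least 1, that is at least 2-fold, between 2 libraries. The steps from 48 to 72 h and from 72 to 96 h share the 72 h library. In RNA from whole mycelium, fewer cells of a kind and less RNA per cell cannot be told apart. Summed FPKM in the knockout ran from 1013290 to 1066820 and median FPKM from 38.0 to 41.5. The number of genes listed at 0 was 302 at 48 h, 477 at 72 h and 430 at 96 h. Read depth is not stated. Among genes under 2 FPKM at both ages, the commonest log2 ratio of the 48 h to the 96 h value was -1.43 (17 of 216 genes), and that of the 72 h to the 96 h value was 0.11 (31 of 184 genes). If these ratios mark 1 read in each library, the 48 h library was sequenced 2.70 times as deeply as the 96 h library and the 72 h library 0.929 times as deeply. The part of depth in changes from 48 h was not tested. Over the 7561 genes, the 48 and 72 h libraries correlated at r = 0.882, the 72 and 96 h libraries at 0.898 and the 48 and 96 h libraries at 0.830. These are correlations across genes, which share a library and are not independent replicates. The closest library of another strain was wild type at 48 h for the knockout at 48 h (0.866), but wild type at 96 h for the knockout at 72 h (0.894) as well as at 96 h (0.858).

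The knockout went on changing through the second day of sampling, with 868 genes past 2-fold at the first step and 685 at the second. From 48 to 72 h, 349 genes rose (4.62% of 7561) and 519 fell (6.86%). From 72 to 96 h, 370 rose (4.89%) and 315 fell (4.17%). The other strains changed mainly in the first step. In wild type, 965 genes rose (12.8%) and 470 fell (6.23%) from 48 to 72 h, and 118 rose (1.56%) and 212 fell (2.81%) from 72 to 96 h. In overexpression, 883 rose (11.6%) and 741 fell (9.77%) in the first step, and 95 rose (1.25%) and 261 fell (3.44%) in the second. Counts of the other strains are over 7547 and 7581 genes that reached 10 FPKM in those strains. Genes past 2-fold at the second step were thus 2.08 times as many in the knockout as in wild type and 1.92 times as many as in overexpression. The ratios stayed between 1.87 and 2.36 and between 1.75 and 2.16 over 10 settings of pseudocount, filter and scaling. The balance of rising and falling genes in overexpression turned on scaling, since its summed FPKM went from 1124540 at 48 h to 919523 and 852915. With equal totals per library 1356 genes rose and 364 fell there at the first step, and 130 and 212 at the second, where wild type had 164 and 166. The difference in these counts between strains was not tested.

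**Figure D1:**
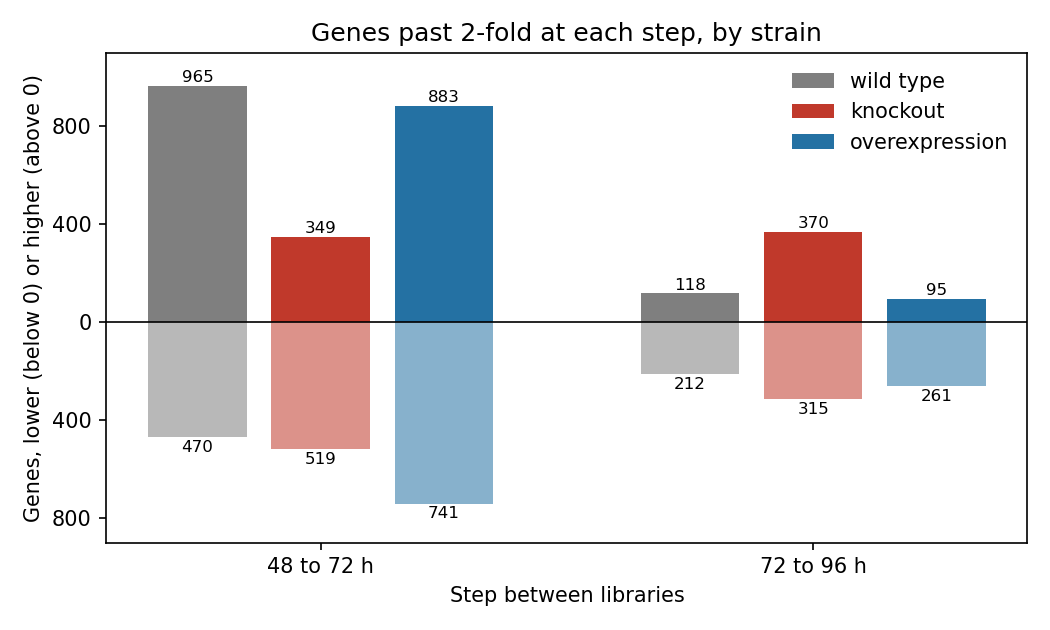
Number of genes (y axis) at least 2-fold higher (solid bars above 0) or lower (pale bars below 0) at each step (x axis) in wild type, knockout and overexpression, 1 library per strain and time. The knockout bars go from 349 and 519 to 370 and 315, and the bars of the other strains shrink more at the second step, to 118 and 212 and to 95 and 261.

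Over the whole interval, 48 to 96 h, 571 genes rose (7.55%) and 765 fell (10.1%) in the knockout. The median change of all 7561 genes was -0.10 on the log2 scale, and the balance of rising and falling genes moved with the scaling. Median-of-ratios rescaling and quantile normalisation, which centre the libraries on each other, gave 668 rising and 626 falling, and 642 and 653. Equal totals per library gave 526 and 871. From 48 to 72 h these settings gave 410 rising and 427 falling, 412 and 424, and 339 and 534. From 72 to 96 h they gave 380 and 305, 360 and 318, and 337 and 352, so that equal totals turned the balance of that step. No direction is called the more frequent at any step. At least 4-fold changes over the interval were found in 179 genes upward and 180 downward, and at least 8-fold changes in 60 and 75.

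The first step, 48 to 72 h, held the steepest rise of the course among genes above 0 in every knockout library. KFH42884.1 was at 6.08 FPKM at 48 h, 547 at 72 h and 6421 at 96 h, a log2 step of 6.27 followed by one of 3.55. It was ranked 7656 among all genes at 48 h and 12 at 96 h. Wild type had 28.0, 9.03 and 5.22 FPKM and overexpression 0.845, 1.55 and 1.80. The 96 h knockout value was therefore far above all 8 other libraries. KFH42558.1 followed, at 10.07, 241 and 576 FPKM in the knockout, a first log2 step of 4.45. It also rose in wild type, from 3.68 to 28.8 and 48.6 FPKM, and in overexpression it was at 1.80, 25.7 and 6.73.

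The largest falls of the first step, among genes above 0 in every knockout library, had different later courses. KFH47853.1 stood at 7900, 500.1 and 531 FPKM in the knockout, a log2 step of -3.98 and then a level course. It was the fourth most abundant transcript of the knockout at 48 h, ranked 4, and 278 at 72 h. It also fell in wild type, from 1091 to 96.8 FPKM at 72 h, and stood at 211 at 96 h, while in overexpression it was at 161, 341 and 112. KFH43304.1 stood at 343, 24.6 and 88.9 FPKM in the knockout, a log2 step of -3.75 followed by a partial return. Wild type stayed between 37.6 and 58.0 FPKM, and in overexpression it went from 648 to 164 and 105.

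In the second step, 72 to 96 h, the largest rises among genes above 0 in all 3 knockout libraries were in genes that had been level or lower before. Of the 31 genes up at least 16-fold at this step, all but KFH42942.1 were at 0 in some knockout library. KFH42942.1 stood at 103, 79.3 and 1729 FPKM in the knockout, a second log2 step of 4.43. Wild type had 9.43, 84.9 and 288 FPKM and overexpression 11.9, 44.9 and 88.7, so the gene climbed over both steps there. KFH40448.1 stood at 10.06, 8.97 and 146 FPKM in the knockout, a log2 step of 3.88. It stayed between 6.41 and 12.9 FPKM in wild type and between 0.105 and 3.35 in overexpression.

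Among genes above 0 in all 3 knockout libraries, the largest falls of the second step were in abundant transcripts. All 17 genes that fell at least 16-fold at this step were at 0 in some knockout library. KFH46950.1 stood at 904, 417 and 31.2 FPKM in the knockout, with log2 steps of -1.12 and -3.70. Wild type went from 1871 to 742 and 302 FPKM, and overexpression from 609 to 85.2 and 105. KFH42067.1 was the most abundant transcript of the knockout at 48 h, with 3.38% of summed FPKM. It was at 34236, 14243 and 1212 FPKM, with log2 steps of -1.27 and -3.55, and its rank went from 1 to 3 and 100. Wild type had 93100, 18436 and 7115 FPKM, and its first step was the larger there (-2.34 against -1.37).

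Genes that moved at least 2-fold in the same direction at both steps numbered 43 upward (0.569%) and 48 downward (0.635%). Wild type had 14 and 15 such genes, and overexpression 43 and 86. The 43 rising genes went from 0.679% of the knockout's summed FPKM at 48 h to 2.10% and 6.22%, and the 48 falling genes from 5.91% to 2.04% and 0.304%. These shares describe the choice and are no test. Beside KFH42884.1, the rising gene whose smaller step was largest, among genes above 0 in all 3 knockout libraries, was KFH42791.1, at 11.6, 86.2 and 548 FPKM. Its steps in the knockout were 2.79 and 2.65, whereas wild type had 3.77, 19.1 and 14.7 FPKM and overexpression 9.69, 27.3 and 19.4, highest at 72 h in both. KFH42616.1 fell from 5687 to 509 and 49.2 FPKM, with log2 steps of -3.48 and -3.34. Wild type fell from 5511 to 334 FPKM and then stood at 459, and overexpression went from 2714 to 592 and 267. KFH46115.1 fell from 95.9 to 9.34 and 1.73 FPKM in the knockout. Wild type had 63.2, 3.803 and 6.45 FPKM, again with no fall at the second step, and overexpression 17.3, 8.40 and 2.18.

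Some genes were at an extreme at 72 h. In the knockout 63 genes (0.833%) were at least 2-fold higher at 72 h than at both other times, and 113 (1.49%) at least 2-fold lower. Wild type had 115 higher (1.52%) and 37 lower (0.490%), and overexpression 67 higher (0.884%) and 15 lower (0.198%). Both differences use the same 72 h library, so error in that library alone would also give such genes, and its part was not tested. The 113 genes had medians of 32.5, 6.29 and 27.6 FPKM at 48, 72 and 96 h, where the choice itself makes the 72 h value low. Of them, 36 were listed at 0 at 72 h, and 77 were above 0 in all 3 knockout libraries. In wild type the 113 genes were at a median of 23.1, 21.4 and 17.2 FPKM and in overexpression at 21.7, 32.8 and 32.6, with no low point at 72 h. The 63 genes had medians of 17.2, 51.8 and 8.40 FPKM in the knockout, where the choice itself makes the 72 h value high. In wild type they were at a median of 23.4, 62.2 and 37.5, where 72 h was also the highest. In overexpression they were at 9.47, 12.7 and 12.7 FPKM, with no peak at 72 h. KFH45883.1, the clearest peak among genes above 0 in every knockout library, stood at 28.4, 286 and 34.0 FPKM in the knockout. Wild type had 369, 956 and 614, while overexpression went from 26.6 to 165 and 223. KFH41721.1 stood at 4.49, 26.6 and 1.47 FPKM in the knockout. Wild type had 23.4, 38.7 and 24.2, also highest at 72 h, and overexpression fell from 90.5 to 29.6 and 7.12. Among the low points, KFH48333.1 stood at 72.3, 10.7 and 128 FPKM in the knockout, between 32.5 and 45.9 in wild type, and at 47.9, 20.3 and 14.1 in overexpression. KFH44719.1 stood at 12.4, 1.61 and 13.0 FPKM in the knockout and between 3.94 and 17.8 in the other 6 libraries.

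**Figure D2:**
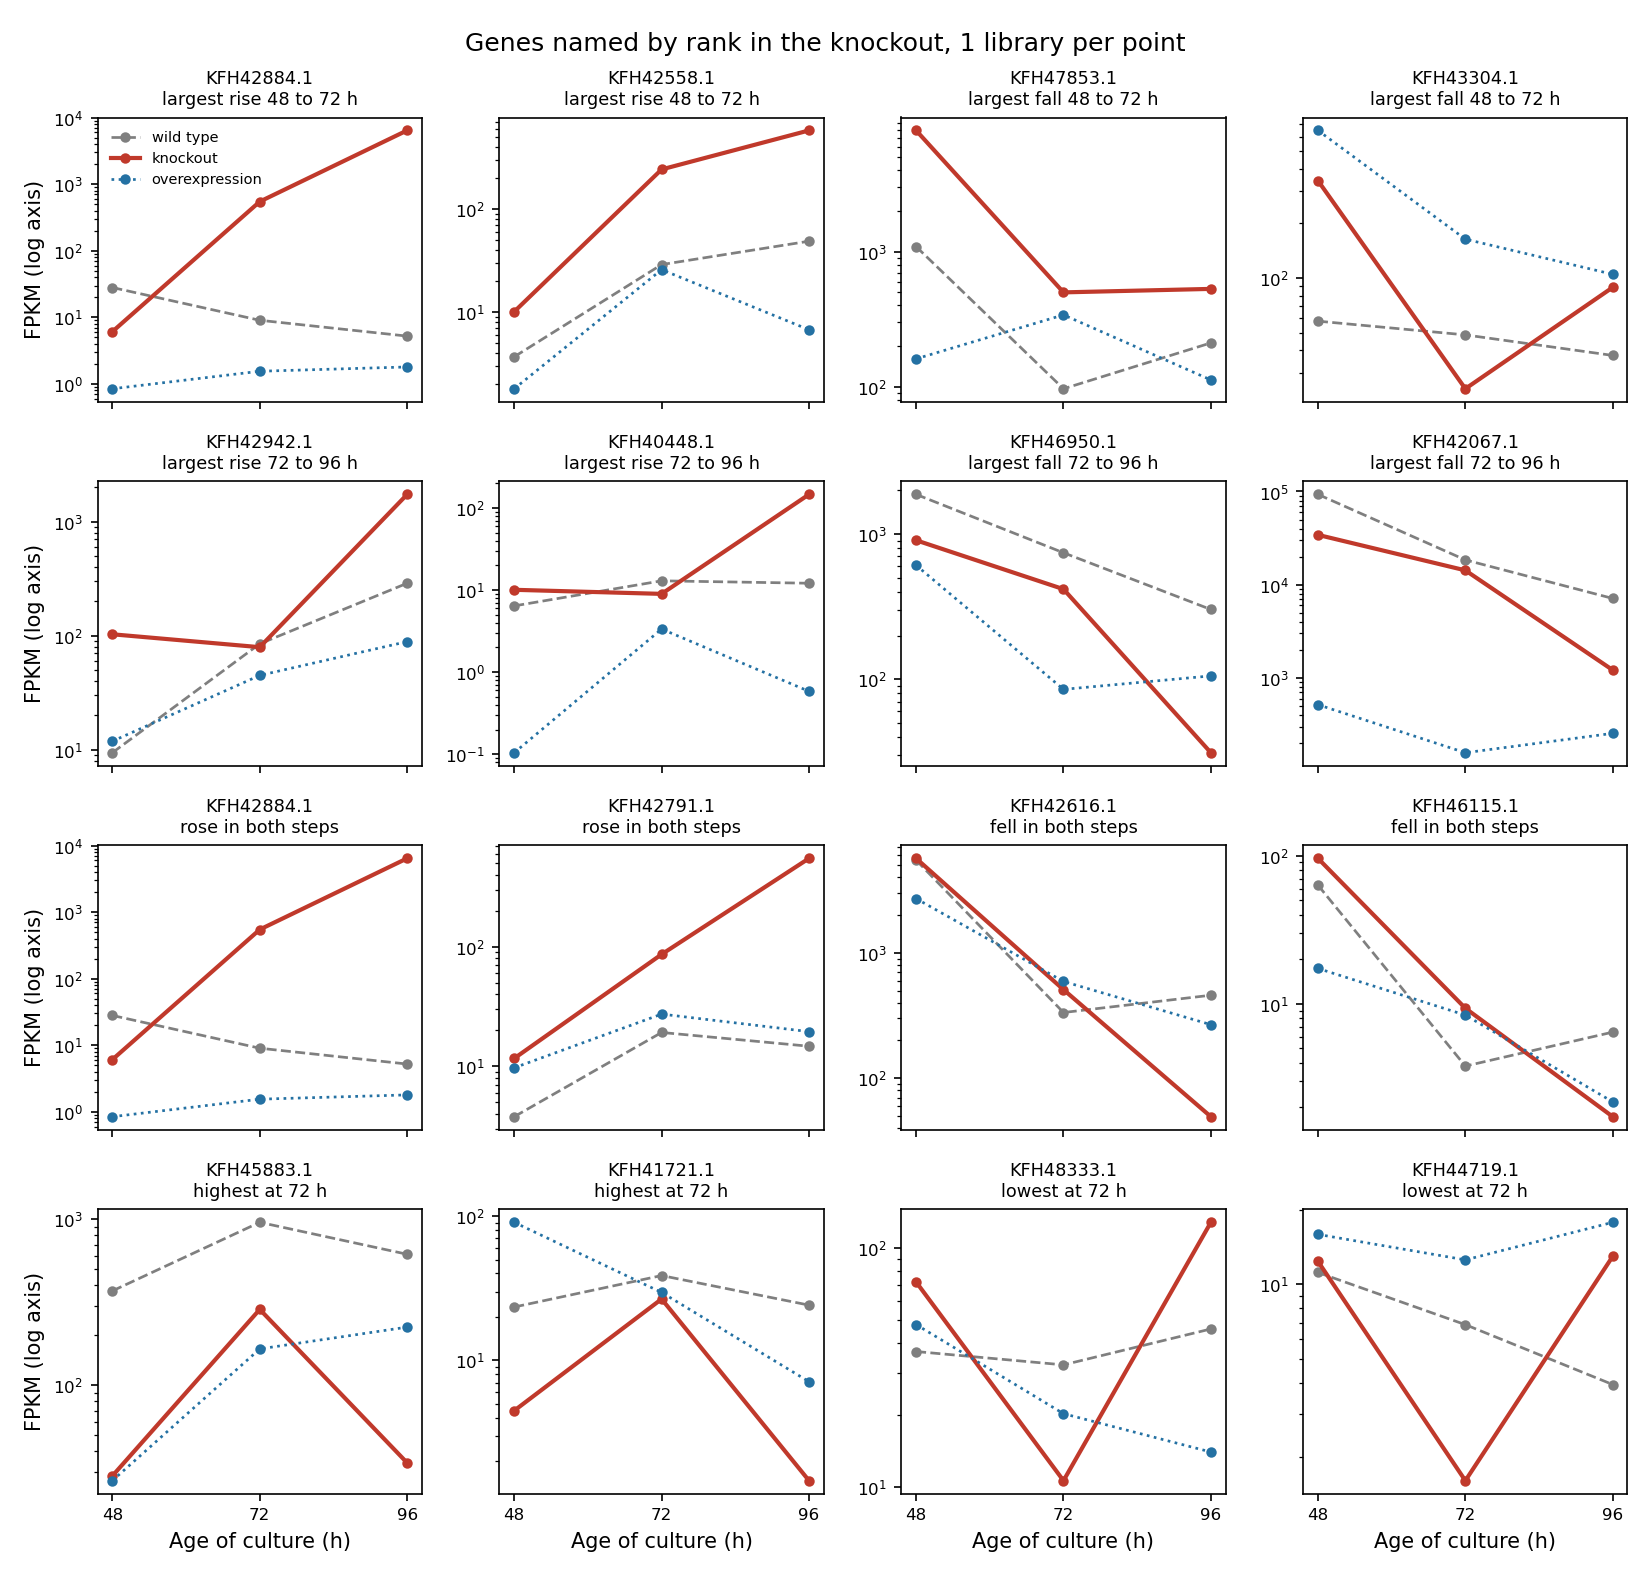
FPKM on a log axis (y) against age of culture in h (x) for the genes named by rank, 1 panel per gene and rule, with the knockout as a thick solid line, wild type dashed and overexpression dotted, and 1 library per point. KFH42884.1 climbs from 6.08 to 6421 FPKM in the knockout and stays below 30 FPKM in the other strains. KFH42616.1 and KFH46115.1 go on falling after 72 h in the knockout and in overexpression, and not in wild type.

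The transcriptome of the knockout became more concentrated with age. Its 100 most abundant genes took 28.7% of summed FPKM at 48 h, 33.0% at 72 h and 35.5% at 96 h. In wild type the share went from 33.5% to 32.2% and 29.8%, and in overexpression from 31.4% to 27.8% and 27.2%. Without the most abundant gene of each library the knockout shares were 26.3%, 31.4% and 33.6% and those of wild type 27.2%, 29.7% and 27.6%. The set also turned over longer in the knockout, with 31 new genes among the top 100 at 72 h and 25 at 96 h, against 37 and 14 in wild type and 38 and 18 in overexpression. The difference in these shares between strains was not tested.

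A few transcripts carried much of the gain. Between 48 and 96 h, 3382 genes gained share of the knockout's summed FPKM and 5272 lost it. The 10 genes with the largest gains made up 33.6% of all that was gained, and the 10 with the largest losses 24.5% of all that was lost. The 10 gaining genes, chosen after the values were seen, went from 2.05% of the knockout library to 6.996% and 11.99%. In wild type the same genes took 0.334%, 2.73% and 2.46%, and in overexpression 0.236%, 2.37% and 2.48%. From 72 to 96 h all 10 were higher in the knockout, with a median log2 step of 0.75, while in wild type 3 were higher and 7 lower, with a median of -0.22, and in overexpression 6 were higher and 4 lower, with a median of 0.12. The choice favours a high knockout value at 96 h, so these contrasts between strains are no test. The 10 genes were not particular to the knockout in direction, since 9 of the 10 rose at least 2-fold from 48 to 96 h in wild type and 9 in overexpression.

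The largest gain was that of KFH43806.1, the most abundant transcript of the knockout at 72 and 96 h. It was at 7683, 25697 and 32888 FPKM, or 0.758%, 2.50% and 3.08% of summed FPKM. Wild type had 237, 3642 and 3439 FPKM and overexpression 181, 2752 and 1337, so the knockout library at 48 h already lay above every library of the other strains. KFH41895.1 came next, at 2273, 7391 and 23317 FPKM in the knockout, with log2 steps of 1.70 and 1.66. Wild type had 31.7, 1899 and 1405 FPKM and overexpression 29.6, 1658 and 705, both highest at 72 h. The largest losses of share were those of KFH42067.1 (-3.27 percentage points) and KFH47853.1 (-0.73), whose values are given above.

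**Figure D3:**
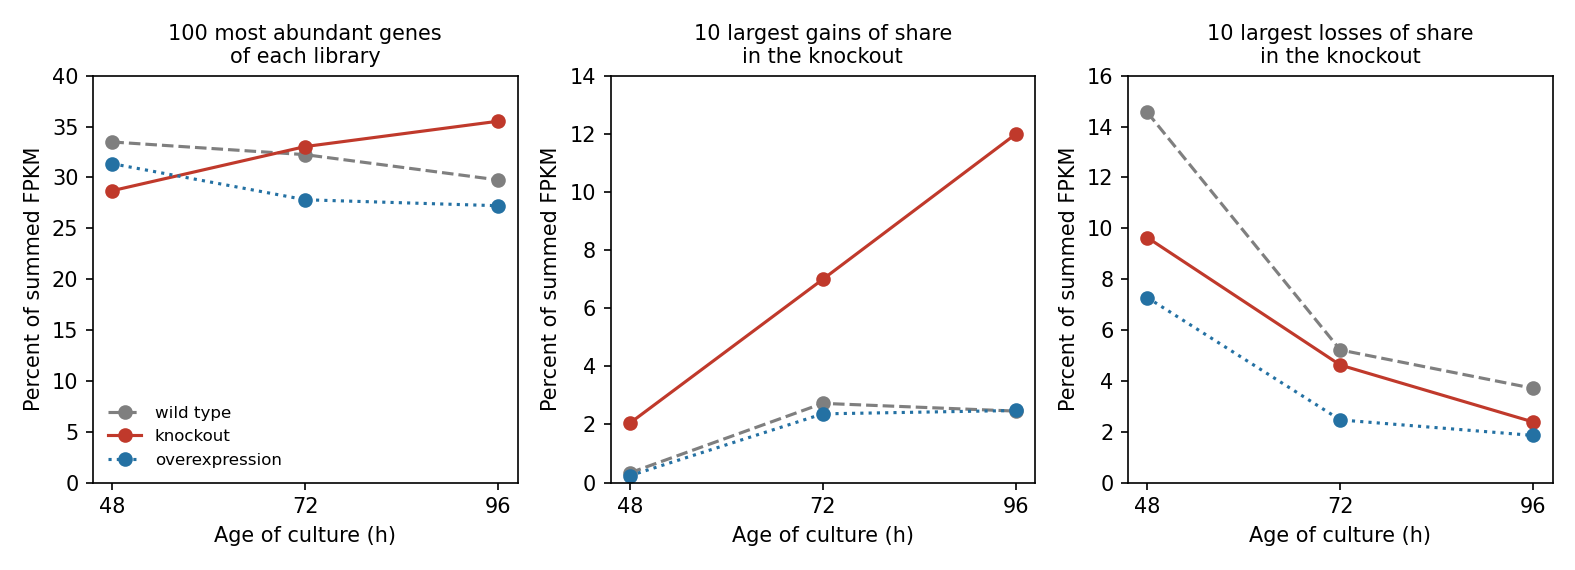
Percent of summed FPKM (y) against age of culture in h (x) in the 3 strains, 1 library per point, for the 100 most abundant genes of each library (left) and for the 10 genes with the largest gain (middle) and loss (right) of share in the knockout between 48 and 96 h. The top 100 share grows from 28.7% to 35.5% in the knockout only, and the 10 gaining genes reach 11.99% there against 2.46% and 2.48% in wild type and overexpression. The gaining and losing genes were chosen by the knockout's own values, which favours a larger change there.

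Rises from 48 to 96 h were most frequent among the most abundant genes, while falls differed less by level. The level is the mean of the same libraries, so a gene that climbed to a very high value could enter the top group by its rise. Of the 127 genes with a mean of 1000 FPKM or more over the 3 knockout libraries, 29.9% rose and 15% fell from 48 to 96 h. Of the 426 genes between 300 and 1000 FPKM, 13.8% rose and 13.4% fell. Of the 3229 genes between 30 and 100 FPKM, the level with the lowest shares, 5.36% rose and 7.59% fell. The 297 genes with a mean under 10 FPKM were kept only because 1 or more libraries reached 10 FPKM, so they had to vary and are not set beside the others. At the first step 30 of the 127 most abundant genes rose and 11 fell, and at the second 13 rose and 15 fell. At the other end, 3845 genes (50.9%) varied by less than 1.5-fold over the 3 libraries. They took 37.4% of summed FPKM at 48 h and 34.9% at 96 h, and 24 of them had a mean of 1000 FPKM or more.

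The genes of each knockout step were next looked up in the other strains, whose libraries were not used to choose them. Of the 349 genes that rose in the knockout from 48 to 72 h, 239 (68.5%) also rose in wild type over the same hours, which is 26.2% of the wild-type risers, and 180 (51.6%) in overexpression, 21.1% of its risers. Over all 7561 genes 12.1% rose in wild type and 11.3% in overexpression. Their median log2 step was 1.38 in the knockout, 1.55 in wild type and 1.07 in overexpression. Of the 519 genes that fell, 168 (32.4%) also fell in wild type, 37.1% of the wild-type fallers, and 130 (25.0%) in overexpression, 18.0% of its fallers. Over all genes these were 5.99% and 9.58%. A further 65 of the 519 genes (12.5%) rose in wild type and 86 (16.6%) in overexpression.

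Fewer genes of the second knockout step changed alike in the other strains at the same hours, where few genes changed at all. Of the 370 genes that rose from 72 to 96 h in the knockout, 23 (6.22%) rose and 46 (12.4%) fell at that step in wild type, and 24 (6.49%) rose and 49 (13.2%) fell in overexpression. Over all genes 1.39% rose and 2.41% fell in wild type and 1.02% and 3.41% in overexpression, so both directions were above the background. The genes that rose with the knockout were 21.9% of the 105 second-step risers of wild type and 31.2% of the 77 of overexpression. More of the 370 had risen a day earlier in the other strains. From 48 to 72 h, 122 (33.0%) rose in wild type and 155 (41.9%) in overexpression, against 12.1% and 11.3% of all genes, and 42 (11.4%) and 26 (7.03%) fell, against 5.99% and 9.58%. In wild type the earlier rise was not particular to these genes. Of the genes that fell at the second knockout step, 27.6% rose in wild type at those hours and 14.9% in overexpression. The median level of the 370 genes in the knockout was 30.5, 19.8 and 71.8 FPKM at the 3 ages. It was 21.2, 37.6 and 30.7 in wild type and 17.4, 38.8 and 37.9 in overexpression. The knockout values include the low 72 h point that the choice of the genes favours.

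Of the 315 genes that fell at the second step in the knockout, 29 (9.21%) fell and 19 (6.03%) rose from 72 to 96 h in wild type, and 55 (17.5%) fell and 10 (3.17%) rose in overexpression. Over all genes 2.41% and 3.41% fell and 1.39% and 1.02% rose, so falls and rises were both above the background. The shared falls were 15.9% of the 182 second-step fallers of wild type and 21.3% of the 258 of overexpression. At the first step 53 (16.8%) had fallen and 87 (27.6%) had risen in wild type, and 81 (25.7%) had fallen and 47 (14.9%) had risen in overexpression, against 5.99% and 12.1% of all genes in wild type and 9.58% and 11.3% in overexpression. Their median level was 51.9, 49.9 and 17.0 FPKM in the knockout. It was 42.5, 50.8 and 44.2 in wild type and 38.8, 37.7 and 27.0 in overexpression. In the knockout the choice of the genes favours a high 72 h and a low 96 h value.

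**Figure D4:**
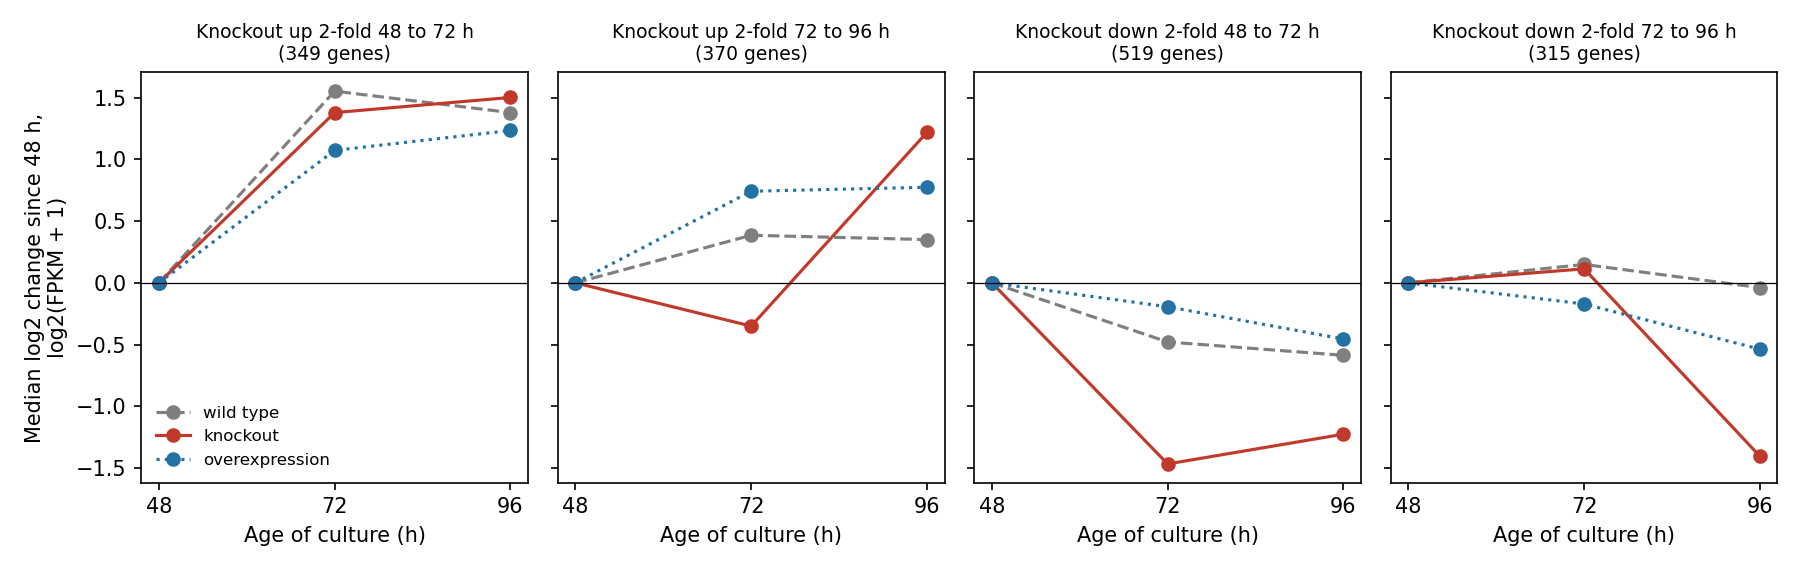
Median change since 48 h in log2(FPKM + 1) (y) against age of culture in h (x) for the genes that rose or fell at least 2-fold at each step of the knockout, in the knockout (solid), wild type (dashed) and overexpression (dotted). Genes of the first rise go up together in the 3 strains (medians of 1.38, 1.55 and 1.07 at 72 h). Genes of the second rise stand at 0.39 and 0.74 at 72 h in wild type and overexpression and at -0.35 in the knockout. All classes were chosen by the knockout's own values, which for the second rise favours a low 72 h point there.

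Over the whole interval, most rising genes also rose in the other strains. In all, 834 of 7547 genes rose (11.1%) and 577 fell (7.65%) in wild type from 48 to 96 h, and 1073 of 7581 rose (14.2%) and 1290 fell (17%) in overexpression. With equal totals per library the overexpression counts turned to 1791 rising and 682 falling. Over the 7561 genes of the knockout 10.6% rose and 7.35% fell in wild type, and 13.6% rose and 16.8% fell in overexpression. Of the 571 genes that rose in the knockout from 48 to 96 h, 309 (54.1%) rose and 18 (3.15%) fell in wild type, and 320 (56.0%) rose and 34 (5.95%) fell in overexpression. The 571 genes went from 7.43% to 18.4% and 30.02% of summed FPKM in the knockout, from 4.44% to 11.2% and 11.3% in wild type, and from 4.21% to 9.81% and 10.9% in overexpression. Of the 765 genes that fell, 212 (27.7%) fell and 74 (9.67%) rose in wild type, and 354 (46.3%) fell and 73 (9.54%) rose in overexpression. Their share went from 20.3% to 4.97% in the knockout, from 22.3% to 10.1% in wild type and from 16.2% to 8.06% in overexpression. Both sets were chosen by the knockout's own 48 and 96 h values, which favours a larger change of share there. The shares are therefore no test of a difference between strains.

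Differences between strains in the course of a gene were tested by fitting 1 straight line per strain, with a slope per 24 h, to all 9 libraries with limma. The residual of this fit is departure from straight lines, with 3 degrees of freedom, and not a spread between repeated cultures. No gene passed an adjusted p of 0.05 out of 8482: 0 (0%) had a higher and 0 (0%) a lower slope in the knockout than in wild type, and 0 (0%) and 0 (0%) than in overexpression. Genes at an unadjusted p under 0.05 numbered 467 (5.51%) against wild type, 153 with the higher and 314 with the lower slope in the knockout, and 839 (9.89%) against overexpression, 431 and 408. The gene with the lowest p against wild type was KFH42884.1. Its slope was 4.91 per 24 h in the knockout and -1.11 in wild type on the log2 scale, a difference of 6.02 (SE 0.51, limma adjusted p = 0.144), and the difference from overexpression was 4.61 (SE 0.51, limma adjusted p = 0.219). It passed against wild type in 1 of 17 alternatives, without the knockout library at 72 h (limma adjusted p = 0.0218). The knockout line then runs exactly through its 48 and 96 h libraries and adds no residual, and the slope difference stayed at 6.02. Over the alternatives its adjusted p against wild type ranged up to 0.569. The typical standard error of a slope difference was 0.28. With 3 evenly spaced times the slope rests on the 48 and 96 h values, and a course that differs at 72 h alone enters only the residual. A miss of the threshold does not show that the time courses were alike.

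Genes listed at 0 in some knockout library were 99 of the 7561, and they were not ranked above. Of these, 8 were at 0 at 48 h only, 36 at 72 h only and 23 at 96 h only. Above 0 in a single library were 22 genes at 48 h, 3 at 72 h and 7 at 96 h. The 48 h library may have been sequenced more deeply, as given above, and the part of depth in these zeros was not tested. KFH45147.1 was listed at 0 at 48 h and was at 42.7 and 28.0 FPKM later; wild type was likewise at 0 at 48 h and then at 157 and 99.2. KFH40412.1 was at 532 FPKM at 48 h and listed at 0 at both later times, but wild type and overexpression were at 0 at 48 and 72 h and at 1120 and 719 FPKM at 96 h. Of the 99 genes, 39 had a value of 10 FPKM or more that another gene also had, digit for digit, in the same library, against 269 of the other 7462. The number of reads behind such values was not tested.

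The identifiers are numbered without gaps from 40211 to 49109. Changes from 48 to 96 h of genes with consecutive numbers did not go together (r = -0.012 over 6440 pairs), and whether numbers follow the order of genes on the genome is not known from the files. The longest run of consecutive numbers that all rose had 5 genes, KFH46797.1 to KFH46801.1. Their log2 changes from 48 to 96 h ran from 1.34 to 3.16 in the knockout, 0.84 to 5.05 in wild type and 1.47 to 2.92 in overexpression. KFH46797.1 went from 1073 to 2409 and 4037 FPKM in the knockout, and wild type had 9.26, 287 and 338. KFH46801.1 went from 152 to 506 and 1029 FPKM, and wild type had 36.5, 101 and 131. The longest falling run had 3 genes, KFH40727.1 to KFH40729.1, with log2 changes from -1.70 to -1.04 in the knockout. KFH40727.1 was at 409, 214 and 199 FPKM there and KFH40729.1 at 29.4, 14.1 and 12.8.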

How the data were processed

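Polyadenylated RNA of mycelium was sequenced on Illumina libraries, per the labels' protocols. HISAT2 2.0.5 and CASAVA (version not stated) are the tools named, per the submitters' processing notes; the build, the gene annotation and the counter were not given in the sources used here. Per gene and library, the authors deposited 1 value that was read as FPKM, that is scaled by length and depth, from the values themselves, because the file header names libraries and no unit. Depth in reads is unknown, so precision could be set only relative to other libraries. All 9 columns matched a library by name. Differences were taken on log2(FPKM + 1), which understates changes of low genes. Because FPKM are not counts, no count test was run.

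The knockout was described over the genes that reached 10 FPKM in 1 or more of its 3 libraries; the same filter was applied in each other strain for its own counts. Slopes were fitted with limma 3.58.1 in R 4.3.3 to genes that reached 1 FPKM in 3 or more libraries, with an intensity trend, two-sided tests and Benjamini-Hochberg adjustment over 8482 genes, and the fit was tested on simulated data. Genes above 0 in all 3 knockout libraries were named by rank: the 2 largest rises and falls of each step, of both steps together and of 72 h against both other times. Named as well were the most abundant genes and the longest runs of consecutive numbers. The highest genes going from or to 0 were also named, and these are at 0 in some knockout library. The 2 largest gains and losses of share were added after the values were seen. The genes, limits and rules were chosen with earlier results of these data known. Alternatives covered pseudocounts of 0.1 and 5, filters, 3 rescalings and leaving out each library from the slope fit. Other steps used Python 3.11.15 and pandas 2.3.3.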

Additional observations from a re-analysis of the deposited data

Results flagged for a closer look

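These results were picked because a gene named in the report moved at least 2-fold one way in the knockout and at least 2-fold the other way in another strain between the same ages. Each rests on 1 library per strain and time, and the difference at the step itself was not tested. KFH42884.1 changed from 48 to 72 h by a log2 step of 6.27 in the knockout and of -1.53 in wild type, and from 48 to 96 h by 9.82 and -2.22; its difference in slope did not pass the adjusted threshold. KFH47853.1 had a log2 step of -3.98 from 48 to 72 h in the knockout and of 1.08 in overexpression. KFH40448.1 had a log2 step of 3.88 from 72 to 96 h in the knockout and of -1.46 in overexpression, where it was under 4 FPKM at all ages. KFH41721.1 had a log2 step of 2.33 from 48 to 72 h in the knockout and of -1.58 in overexpression. From 72 to 96 h, KFH42558.1 had a log2 step of 1.25 in the knockout and of -1.79 in overexpression, and KFH41895.1 of 1.66 and -1.23. KFH40412.1 was at 532 FPKM in the knockout at 48 h alone, and at 1120 and 719 FPKM in wild type and overexpression at 96 h alone, listed at 0 in the other 6 libraries.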

How the results depend on the processing

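Counts of rising, falling and 72 h extreme genes of the knockout kept within 1.5 times of the reported value under all 9 other settings (pseudocounts of 0.1 and 5, limits of 5 and 20 FPKM, no limit, only genes above 0, equal totals, median-of-ratios and quantile rescaling), except that with no limit the genes highest at 72 h numbered 100 in place of 63. Counts of the other strains moved more: with equal totals overexpression had 364 in place of 741 falling genes at the first step, its second-step risers ran from 57 to 174 in place of 95, and those of wild type reached 190 with no limit in place of 118. Under the 5 pseudocounts and rescalings, 10 of 130 values of 26 named changes moved by more than 1.5-fold and 0 changed sign. In the slope fit, leaving out 1 library at a time gave 0 to 1 genes with a higher and 0 to 1 with a lower slope than wild type, and 0 to 0 higher and 0 to 1 lower than overexpression; the 8 other settings of that fit gave 0. The genes were KFH42884.1 (without the knockout at 72 h), KFH40418.1 (without it at 48 or 72 h), KFH47191.1 (without it at 48 h, and without it at 96 h in both comparisons) and KFH48174.1 (without wild type at 72 or 96 h), the last 3 named after their values were seen. In each of these fits the strain that lost a library was fitted exactly by its line and added no residual. The part of this in the passes was not tested. Without the most abundant gene of each library, chosen after seeing the data, the top 100 shares of the knockout became 26.3%, 31.4% and 33.6%. Unknown depth limits low genes most, and a single library per time leaves culture-to-culture spread unmeasured.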
